A study of Equus caballus with 16 samples.

Results

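The comparison described here is between fetal and adult horse tenocytes, the fibroblast-like cells of tendon, that all carried a short hairpin RNA directed at SCX (shSCX). Its members are the 8 shSCX libraries of the series, 4 from fetal and 4 from adult lines, out of 16 libraries in all. They were chosen by the hairpin in their titles, a rule that uses no measured value, with earlier results of these data known. The fetal lines came from fetuses at 271, 316, 319 and 320 days of gestation and are named 271d, 316d, 319d and 320d. The adult lines TB171012, TB180412, TB130911 and S came from horses whose age is given as a range, 2 to 10 years. Each line also has a library with a scrambled non-target (NT) hairpin, and these 8 NT libraries are set beside the shSCX values. All lines are serum-grown cultures made stable for a hairpin vector, so the controls carry the vector too, and 1 hairpin sequence, designed against the human gene, stands for SCX knockdown throughout. Which tendon the cells came from is not stated in the labels. The adult lines were at passage 7 (TB171012), 5 (TB180412) and 8 (TB130911 and S), and the fetal lines at passage 7, or 8 for 319d.

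Scleraxis, the protein encoded by SCX, is a basic helix-loop-helix transcription factor that marks tendon progenitors in the embryo and stays expressed in tendon cells. It is known to act on genes of the tendon matrix, among them type I collagen genes and tenomodulin. Fetal tendon is known to heal with less scarring than adult tendon. The study asks whether Scleraxis controls different genes at different developmental stages, and the present comparison gives the state of the cells of both stages once the hairpin is in place. The deposited tables carry horse Ensembl gene identifiers without symbols, and 0 of 21689 identifiers matched the gene table used here. No role can therefore be given for a named gene, the level of SCX was not checked, and tenocyte markers and markers of other cell types were not examined.

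The 8 libraries held 17628158 to 26157162 estimated counts, and 12238 to 12692 genes per library had 10 or more counts. Total counts averaged 22802055 ± 2428634 in adult and 19994726 ± 2308812 in fetal libraries (SD, n = 4 each; exact permutation p = 0.171, Benjamini-Hochberg adjusted 0.600 over 7 library measures). The share of counts held by the 10 most abundant genes was 16.3% ± 2.79 in adult and 14.8% ± 1.28 in fetal libraries (SD, n = 4 each; exact permutation p = 0.371, adjusted 0.650). The numbers of genes with 10 or more counts, 12513 ± 198 and 12462 ± 178 (SD, n = 4 each), overlapped between the stages (exact permutation p = 0.743, adjusted 0.867). The smallest p that 4 against 4 libraries can give is 0.0286.

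With the hairpin in place, fetal and adult tenocytes were told apart at 1 of 12482 genes tested (0.00801%; edgeR quasi-likelihood test, adjusted p under 0.05). That gene, ENSECAG00000024388, was higher in adult cells. The stages are different animals, so stage cannot be told apart from any other trait in which these groups of animals differ. Before adjustment 553 genes were at p under 0.05, of which 264 were higher in fetal and 289 in adult libraries, where 624 would be expected from 12482 tests without any difference. The next smallest adjusted p was 0.377. A count of 1 says how often a stage difference rose above the spread between lines in this test; genes without a call are not shown to be alike in both stages.

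ENSECAG00000024388 had 87 counts in TB171012, 119 in TB180412, 124 in TB130911 and 88 in S. In the fetal shSCX libraries it had 3, 2, 4 and 2 counts, in the order 271d, 316d, 319d, 320d. Every adult library thus lay far above every fetal one, with group means of 99.5 ± 18.8 and 2.85 ± 0.843 normalised counts (SD, n = 4 each), which are counts scaled to a common library size. Its fitted log2 fold change, fetal minus adult, was -5.06 (SE 0.36, edgeR adjusted p = 0.00183). Over the summed counts, 418 in adult and 11 in fetal libraries, and scaled by library size, the adult level was 34.4 times the fetal one (95% exact interval 19.0 to 69.5, covering counting error only). In bulk RNA a lower value from fewer expressing cells and one from less RNA per cell cannot be told apart.

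The call of ENSECAG00000024388 was made again under all 9 other settings of the analysis and with each of the 8 lines left out, where the edgeR adjusted p ran from 0.00139 (without TB171012) to 0.0283 (without 271d). The same gene separated the stages in the NT libraries, with 59 to 66 counts in every adult line against 0 to 1 in every fetal one (edgeR adjusted p = 0.0121). It was the 1 gene called there among 12384 tested (0.00807%). That NT call was kept without TB171012 or 319d and missed the threshold when 320d, 316d, 271d, S, TB130911 or TB180412 was left out, with edgeR adjusted p between 0.0550 and 0.112. The NT and shSCX libraries come from the same 8 lines, so the second comparison is not an independent sample of horses. From NT to shSCX the gene's log2 CPM went up in 8 of 8 lines, by 0.40 to 0.97 over the adult lines and by 0.59 to 1.60 over the fetal lines. The fetal changes rest on 0 to 4 counts per library and depend on the prior count of 2 added before taking logs. Its stage difference was smaller in size with shSCX than with NT by 2.18 on the log2 scale (SE 0.84), which was not past the threshold in the stage by hairpin interaction (edgeR adjusted p = 0.307).

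**Figure D1:**
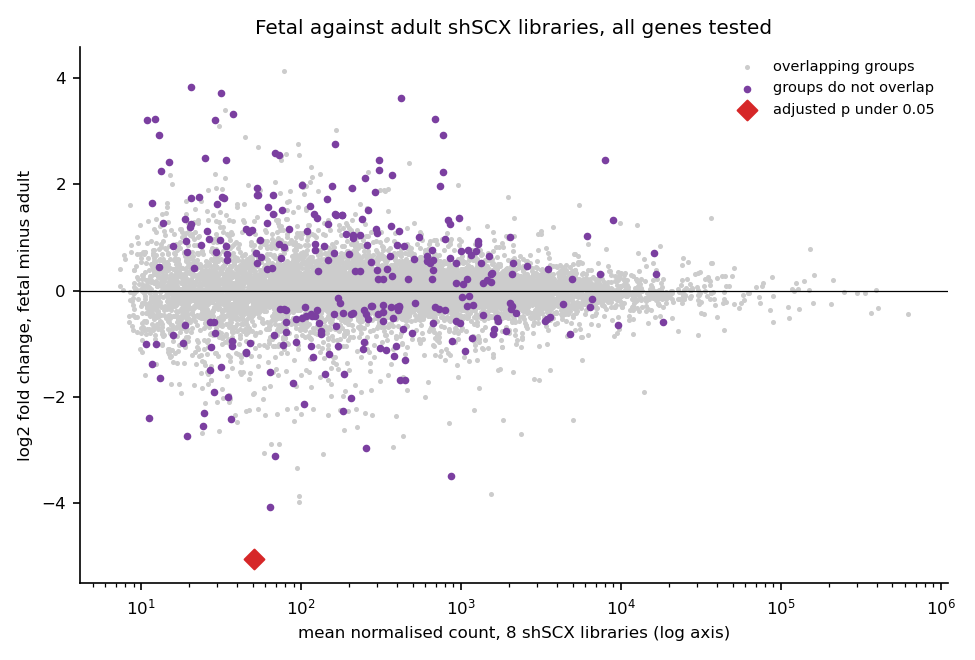
Log2 fold change, fetal minus adult, against the mean normalised count over the 8 shSCX libraries (log axis), 1 point per gene tested. The red diamond at -5.06 is the called gene ENSECAG00000024388, and purple points are the 281 genes whose 4 fetal and 4 adult values do not overlap.

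ENSECAG00000023118 was the second gene named on the adult side, and it did not pass the threshold. Normalised counts were 513 in TB171012, 602 in TB180412, 440 in TB130911 and 560 in S, against 295, 245, 256 and 222 in the fetal libraries in the order above. The values lay close together within each stage, at 529 ± 69.5 in adult and 255 ± 30.5 in fetal libraries (SD, n = 4 each), and the highest fetal library stayed below the lowest adult one. The log2 fold change was -1.05 (95% interval -1.45 to -0.66, SE 0.18, edgeR adjusted p = 0.377). This interval and those of the genes named below are not adjusted. Such genes were picked by p in these same libraries, so an interval without 0 does not show a stage difference. In the NT libraries the groups overlapped, because 319d at 277 lay above TB130911 at 276, and adult lines averaged 355 ± 67.4 where fetal ones averaged 203 ± 61.2 (SD, n = 4 each). The gene was named for its lack of overlap with shSCX, and its stage difference was not shown to differ between the hairpins (interaction -0.23, SE 0.19, edgeR adjusted p = 0.537).

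On the fetal side no gene passed, and the genes named are those with the smallest p among genes without overlap whose higher group averages at least 50 normalised counts. ENSECAG00000011335 had 351 normalised counts in TB171012, 334 in TB180412, 153 in TB130911 and 246 in S. The fetal libraries 271d, 316d, 319d and 320d had 1018, 1932, 824 and 1317, so the lowest fetal value was more than double the highest adult one. The log2 fold change was 2.23 (95% interval 1.46 to 3.00, SE 0.34, edgeR adjusted p = 0.377), from 271 ± 91.0 in adult to 1273 ± 484 in fetal libraries (SD, n = 4 each). With NT the stages also lay apart, at 815 ± 349 and 2167 ± 629 normalised counts (SD, n = 4 each), and the fitted log2 difference between them was 1.41 (SE 0.36, edgeR adjusted p = 0.998).

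ENSECAG00000011335 was lower with shSCX than with NT in 8 of 8 lines. The change in log2 CPM ran from -2.15 (S) to -1.17 (TB180412) over the adult lines and from -1.19 (320d) to -0.32 (316d) over the fetal lines, so the ranges overlapped at their ends. The stage difference was larger by 0.73 on the log2 scale with shSCX (SE 0.26), and the interaction was not past the threshold (edgeR unadjusted p = 0.0169, adjusted 0.307).

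ENSECAG00000017925 was low throughout, with 8, 2, 8 and 1 counts in TB171012, TB180412, TB130911 and S. In 271d, 316d, 319d and 320d there were 33, 52, 86 and 51, so that no adult library came near a fetal one. Normalised counts averaged 4.24 ± 3.16 in adult and 59.3 ± 24.2 in fetal libraries (SD, n = 4 each). The log2 fold change of 3.73 (95% interval 2.39 to 5.08, SE 0.60, edgeR adjusted p = 0.377) corresponds to 13.3-fold and rests on 19 adult counts in all. With NT it was 3.12 (SE 0.76, edgeR adjusted p = 0.998), where adult lines had 1 to 17 counts and fetal lines 17 to 74. Moves from NT to shSCX had no common direction at either stage, with 2 of 4 lines going up in each.

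Genes named in the NT libraries by the same rule were looked up in the shSCX libraries. ENSECAG00000033730 had 25.4 to 176 normalised counts in adult and 226 to 695 in fetal shSCX libraries, still without overlap, and its log2 fold change was 2.46 (SE 0.59, edgeR adjusted p = 0.732) against 2.69 with NT (SE 0.33, edgeR adjusted p = 0.0824). The adult values were low in TB130911 (25.4) and S (48.3) and higher in TB180412 (124) and TB171012 (176). In ENSECAG00000023734 the adult shSCX libraries had 1 to 15 counts and the fetal ones 29 to 91. Its log2 difference was 3.21 (SE 0.69, edgeR adjusted p = 0.538) beside 3.00 with NT (SE 0.50, edgeR adjusted p = 0.520).

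ENSECAG00000018067, named on the adult side of the NT comparison, showed how 1 line can decide a value. In adult shSCX libraries it had 568 counts in TB180412, 262 in S, 103 in TB130911 and 12 in TB171012, and in fetal ones 10, 4, 4 and 5 in the order above. TB171012 thus stood with the fetal lines, and because of its low value the gene fell under the filter on low counts and was not among the 12482 genes tested. Summed over the stage and scaled by library size, the adult level was 37.2 times the fetal one (95% exact interval 24.6 to 59.0, counting error only). With TB171012 left out the gene passed the filter and was called, at a log2 fold change of -5.71 (edgeR adjusted p = 0.0319). Without 271d, 316d, 319d or 320d the smaller stage has fewer libraries, and the filter then asks for enough counts in fewer of them. The gene passed it in these fits too, with TB171012 kept, and was not called (lowest edgeR adjusted p = 0.702). With no filter it was -5.31 and not past the threshold (edgeR adjusted p = 0.298).

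**Figure D2:**
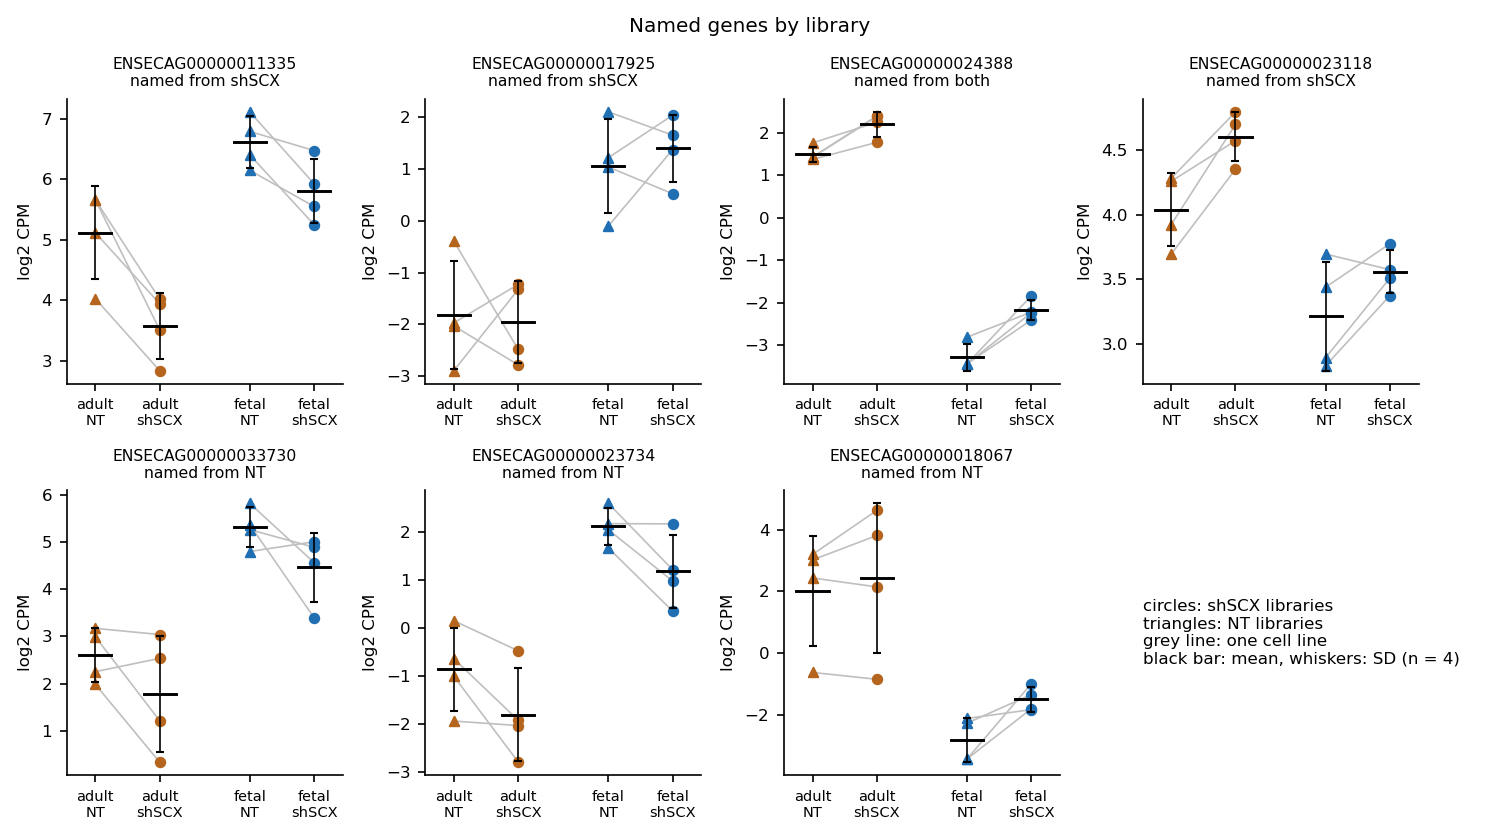
Log2 CPM (prior count 2, scaled over all 16 libraries) of the 7 named genes, with NT libraries as triangles, shSCX libraries as circles, grey lines joining the libraries of a line, and bars for the mean and SD of 4 lines. ENSECAG00000024388 shows adult lines far above fetal lines with either hairpin, and ENSECAG00000018067 shows TB171012 near the fetal level.

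The called gene included, 281 genes had 4 fetal values that did not overlap the 4 adult ones. This count is a description with no test, and lack of overlap alone does not show a stage difference in a gene. Of these, 154 were higher in fetal (1.23% of genes tested) and 127 in adult libraries (1.02%). Their median size was 0.84 on the log2 scale against 0.18 over all genes tested; lack of overlap picks large differences, so this is a description. At least 2-fold differences were fitted for 120 of the 281, of which 77 were higher in fetal and 43 in adult libraries. Over all 12482 genes tested, such differences were fitted for 545 (4.37%), whose directions were not counted. Among the 281, at least 4-fold differences were fitted for 37. In the NT libraries 95 genes did not overlap with fetal higher (0.767%) and 80 with adult higher (0.646%). If stage made no difference, a share of 0.0286 of genes, both directions together, would be expected without overlap. The share observed was below that with either hairpin.

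Of the 281 genes without overlap, 269 were also tested in the NT libraries, where 248 had the same sign and 21 the opposite sign. Both comparisons use the same 8 lines, and a line that is high or low for a gene carries that into either, so the shared sign is not independent evidence. Without overlap in both were 40 genes, 23 higher in fetal and 17 in adult cells, which is 14.2% of the shSCX list and 22.9% of the 175 NT genes; 0 were without overlap in opposite directions. The median log2 fold change of the genes higher in fetal shSCX libraries was 0.96 there and 0.48 with NT. For genes higher in adult shSCX libraries it was -0.62 and -0.31. Values are raised in the libraries that chose the list.

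Whether the stage difference itself changed with the hairpin was tested as the interaction of stage and hairpin, with the line as a block. Of 12888 genes, 0 were called (0%; lowest edgeR adjusted p = 0.307), with 2006 at unadjusted p under 0.05, where 644 would be expected without any difference. The observed number was 1122 without 316d, 1240 without TB180412 and 1404 to 2858 without any other line. Limma voom called 0 and the DESeq2 Wald test 38. Among the genes named from the shSCX libraries, the differences between the stage contrasts were 0.73 for ENSECAG00000011335, 0.54 for ENSECAG00000017925, 2.18 for ENSECAG00000024388 and -0.23 for ENSECAG00000023118, with edgeR adjusted p of 0.307, 0.789, 0.307 and 0.537.

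Most genes had a stage difference that the data bound to under 2-fold. For 7915 of the 12482 genes (63.4%) the 95% interval of the log2 fold change, taken gene by gene with no adjustment, lay within -1 and 1. The median half-width of that interval was 0.61, or an SE of 0.27. The half-width narrowed with the counts up to the class from 1000 to 10000, and was wider again above it. Among 2607 genes with a mean under 100 normalised counts the median half-width was 1.03, and 20.8% were bounded to under 2-fold. For the 6483 genes from 100 to 1000 these values were 0.58 and 70.4%, and for the 3111 genes from 1000 to 10000 they were 0.49 and 82.7%. The most abundant class, above 10000, also held 281 genes by coincidence and had a half-width of 0.53 and were bounded in 82.9%. Non-overlapping genes made up 3.68%, 2.05%, 1.58% and 1.07% of the 4 classes in that order. At 7.54% of genes the interval reached past 4-fold in 1 direction or both, and these include ENSECAG00000024388 and ENSECAG00000017925, whose whole intervals lie past it.

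No gene had 10 or more counts in all 4 libraries of one stage and 3 or fewer in all 4 of the other under shSCX, out of 21689 identifiers. With NT 3 genes did, all on the adult side. ENSECAG00000024388 missed this limit under shSCX because of its 4 counts in 319d. At least 10 counts in all 8 shSCX libraries were found for 11500 genes.

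On components 1 and 2, the main directions in which the 8 libraries differed, the fetal lines lay inside the adult range. Component 1 of log2 CPM, with 32.7% of the variance, placed TB171012 (-64.7) and S (-37.1) at one end and TB130911 (39.3) and TB180412 (32.4) at the other, with the fetal lines between -15.0 and 30.8. Component 2, with 29.9%, ran from S (-57.3) and TB180412 (-46.3) to TB171012 (35.4), and again the fetal lines, from -15.7 to 30.7, lay inside the adult range. The fetal mean was above the adult mean by 15.0 on component 1 and 34.1 on component 2. Neither difference was shown beyond the spread (exact permutation p = 0.629 and 0.257, adjusted 0.867 and 0.600). With 4 lines a stage, a part of stage in these components is not excluded. Component 3, with 11.5%, was the first on which the stages did not overlap, at -26.4 to -3.14 in adult and 5.39 to 42.9 in fetal libraries (exact permutation p = 0.0286, adjusted 0.200). That adjusted value cannot decide the question. A p of 0.0286 is the smallest possible here, and 1 measure of 7 reaching it alone is adjusted to 0.200. The means lay 34.2 apart on component 3, about as far as on component 2. The stages overlapped on component 3 without TB171012, TB130911 or 320d, and with the 2000 most variable genes. Component 4 (8.82%) gave an exact permutation p of 0.914.

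**Figure D3:**
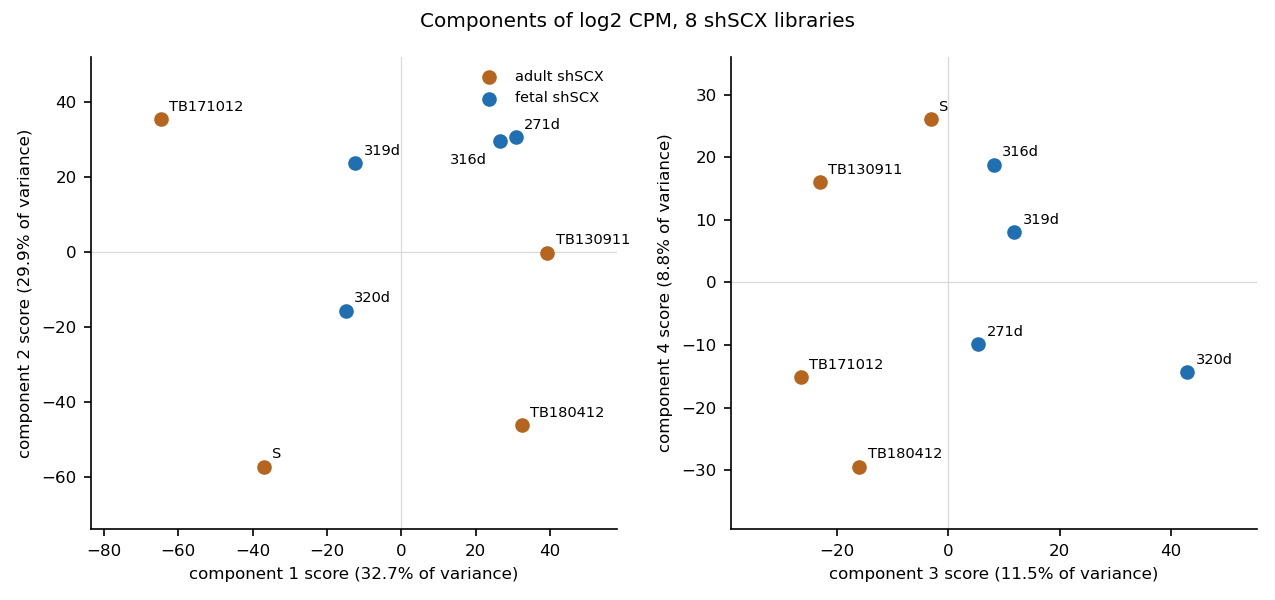
Scores of the 8 shSCX libraries on components 1 to 4 of log2 CPM, adult in brown and fetal in blue, with the share of variance on each axis. Adult lines lie at both ends of components 1 and 2, and the stages are apart on component 3.

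Distances between whole libraries were taken next. Under shSCX, 3 of 4 adult libraries were closer to a fetal library than to any adult one, by the root mean square difference in log2 CPM over 12482 genes. TB171012 was nearest to 319d (0.740, against 0.981 to S, the nearest adult), TB130911 to 316d (0.636, against 0.700 to TB180412) and S to 320d (0.752, against 0.838 to TB180412). TB180412 was nearest to TB130911. All 4 fetal libraries had another fetal library as the nearest, at 0.542 to 0.657. With NT, 3 of 4 adult and 2 of 4 fetal libraries had their nearest library in the other stage.

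Adult shSCX lines lay further from each other than fetal ones did. Between 2 adult shSCX libraries 1297 to 3734 genes were at least 2-fold apart (median 2549 over 6 pairs), against 789 to 2023 between 2 fetal ones (median 1266 over 6 pairs). Pairs across the stages had 973 to 3154 such genes (median 1869.5 over 16 pairs), a median that lay between those within the stages. In the NT libraries the medians were 2124 within adult, 1540 within fetal and 1669 across stages. The pairs share libraries and are given without a test.

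**Figure D4:**
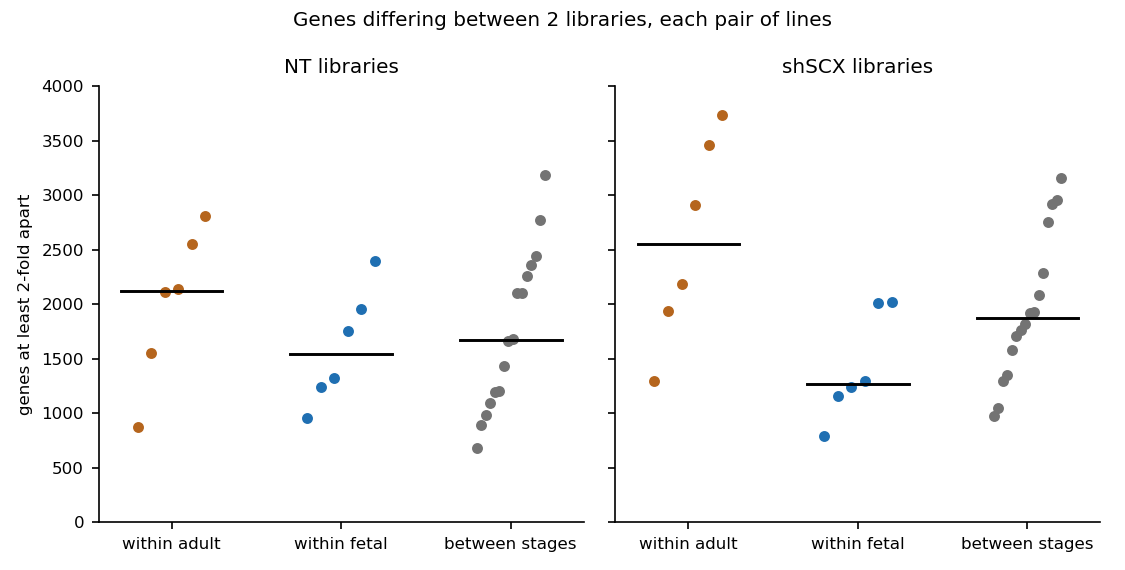
Genes at least 2-fold apart between 2 libraries, 1 point per pair of lines, for NT (left) and shSCX (right); bars are medians. The medians under shSCX are 2549 within adult, 1266 within fetal and 1869.5 between stages.

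Gene by gene, the SD of log2 CPM over the 4 adult shSCX lines was larger than that over the 4 fetal lines for 9715 of 12482 genes (77.8%). The median SD was 0.438 in adult and 0.290 in fetal lines, and an SD over 1 was found for 1370 and 463 genes. With NT the adult SD was larger for 59.2% of genes, with medians of 0.377 and 0.336. From NT to shSCX the median SD was thus higher in adult and lower in fetal lines; this change was not tested. The biological coefficient of variation, fitted within a stage, was 0.432 in adult and 0.289 in fetal shSCX libraries, and 0.368 and 0.323 with NT.

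The larger adult spread under shSCX was present with any 1 line left out. Its share of genes was lowest without TB171012, at 66.9% (median SD 0.376 in adult against 0.293 in fetal lines), and highest without 320d, at 83.6%. Genes are not independent replicates, and with 4 lines a stage the SDs themselves are imprecise. The adult lines differ more in passage (5 to 8) than the fetal ones (7 to 8), and the part of passage or of the animals' ages in the spread was not tested. Passage as a covariate entered only the test of stage means, which called 1 gene with it and without it. That fit does not measure the spread.

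**Figure D5:**
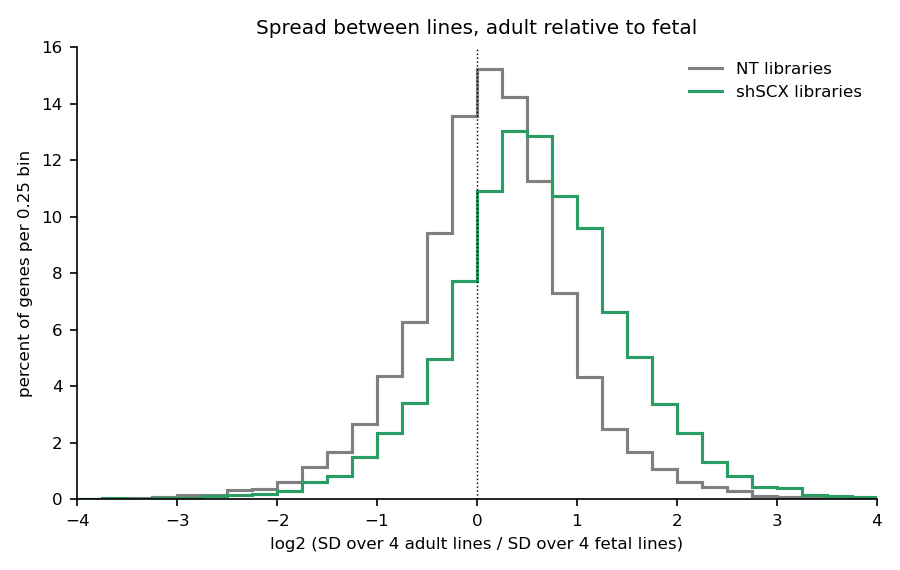
Percent of genes by the log2 ratio of the SD over adult lines to that over fetal lines, in bins of 0.25, for NT (grey) and shSCX (green) libraries. Values right of 0 are genes with the larger SD in adult lines, 77.8% under shSCX and 59.2% with NT.

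How many genes were called depended on the test. The DESeq2 Wald test called 55 of the 12482 genes, 33 higher in fetal and 22 in adult libraries, and edgeR's likelihood-ratio test called 44, 30 and 14 in the same order. Limma voom called 1. With DESeq2 ENSECAG00000011335 (adjusted p = 1.75e-06), ENSECAG00000017925 (1.05e-05) and ENSECAG00000023118 (4.65e-05) passed, as did ENSECAG00000023734 (0.00302) and ENSECAG00000033730 (0.00488). Without TB171012 the edgeR test called 5 genes, 2 higher in fetal and 3 in adult libraries; it called 2 without TB130911, S or 319d and 1 without any of the others. Without TB171012 1209 genes were at unadjusted p under 0.05. That number was 893 without TB130911 and lay between 376 and 713 without any other line.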

How the data were processed

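RNA from cultured tenocytes was sequenced as stranded mRNA libraries with paired reads, per the labels' protocols. The authors deposited unscaled estimated counts per gene in 1 table per stage, over the same 21689 horse Ensembl identifiers. The submitters' processing notes name Salmon, FastQC and R 3.5.2. Which transcripts and genome build were used, and how values were summed per gene, is not given in the sources used here. Salmon divides reads among similar transcripts, so near-identical gene copies are uncertain. Columns were matched to titles; a column pair with the prefix TB and no number went to TB171012, the adult title left over.

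The tables were joined by identifier and the counts rounded to whole numbers. The 8 shSCX libraries were scaled together (TMM) and tested, unpaired, in R 4.3.3 with edgeR 4.0.16 (filterByExpr, quasi-likelihood test, Benjamini-Hochberg adjustment over all genes tested, threshold 0.05). The NT libraries were tested likewise. The interaction used all 16 libraries blocked by line, because NT and shSCX cells of a line are the same culture's (deviations from group means correlated at r = 0.41 to 0.831 in 8 of 8 lines). SEs are the absolute log2 fold change divided by the square root of F. Log2 CPM used a prior count of 2. Library measures were compared by two-sided exact permutation. P-values refer to the spread between lines, which the series calls independent. No 2 shSCX libraries of a stage were identical, and their counts gave a chi-square of at least 43.3 per degree of freedom, where sampling noise alone gives about 1.

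Per direction 2 genes were named: called genes without overlap between stages and averaging 50 or more normalised counts in the higher group, by size of change, and otherwise genes meeting the last conditions by smallest p. Symbol-based gene lists could not be used. The libraries, rules and lists were chosen with earlier results of these data known; the spread between lines was added after seeing the data. Scripts were tested on simulated counts. For the stage test, recovery of the changes put in was required only at a spread smaller than that of these data. Passing the check therefore does not show how many changes the test would find here. A larger spread was simulated too, with no requirement on recovery, and its recovery is not given here. Alternatives used DESeq2 1.42.0, limma 3.58.1 voom, other scalings and filters, all 16 libraries in one fit, passage as a covariate, and each line left out.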

Additional observations from a re-analysis of the deposited data

Results flagged for a closer look

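Checked were 28 groups of 4 values: the 7 named genes and 7 library measures at each stage, shSCX libraries. In 1 group a library lay far from the rest. Its gap to the nearest value, divided by the range of the 4 values, was 0.848. The 95% limit of Dixon's test for this ratio is 0.829. Chance alone marks about 1 in 20 such groups. On component 2 the fetal line 320d scored -15.7, while the other fetal lines scored 23.7 to 30.7. The library of 320d also had the smallest total of the 8, 17628158 counts, and its part in the score was not tested.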

How the results depend on the processing

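The edgeR quasi-likelihood test called 1 gene under 5 other scalings, filters and fits, and limma voom and the passage covariate did too. DESeq2 called 55 and edgeR's likelihood-ratio test 44. Leaving out a line gave 1 to 5 calls. In the NT libraries DESeq2 called 22 genes and voom 1, and leaving out a line gave 0 to 3. For the interaction DESeq2 called 38 genes; without the replicate block edgeR called 0, with 39 at unadjusted p under 0.05. No paired fit of fetal against adult exists, as the stages are different animals.

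The share of genes with the larger adult SD was 76.9% with total counts, 80.2% for genes with at least 100 normalised counts, and 66.9% to 83.6% with a line left out. Values that changed sign had not passed a test: the interaction of ENSECAG00000017925 (-0.63 to 1.26 with a line left out), the stage differences of component 1 (-9.63 to 40.5) and component 4 (-18.7 to 8.89, and -1.37 with the 2000 most variable genes), and the number of genes with 10 or more counts (-142 to 17.3). The causes were not tested. Non-overlapping genes numbered 175 and 115 with total counts, in place of 154 and 127. Low counts limit precision: genes with a mean under 100 normalised counts had a median 95% half-width of 1.03 log2 units.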
